A study of Mus with 18 samples.

Results

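Macrophage identity and signalling genes were followed in RNA-seq of 2 mouse experiments, one labelled C2C12 and one of gastrocnemius muscle. The set was a fixed list of 36 gene symbols, and a gene was a member when its symbol, or its older symbol in the case of Spi1 (listed as Sfpi1), was a row of both expression tables. Of the 36, 34 were found among 21401 gene symbols. Cd68 and Syk were not analysed here. Emr1 is the older symbol of the gene for the F4/80 antigen.

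Macrophages are phagocytes that arise from myeloid precursors under the transcription factor PU.1, which is encoded by Spi1. They carry Fc receptors for antibodies and other activating receptors that have no signalling tail of their own and instead pair with the adaptors Tyrobp (DAP12) or Fcer1g. The immunoreceptor tyrosine-based activation motif (ITAM) of these adaptors is phosphorylated by Src-family kinases such as Lyn, and the signal then passes through Btk, Plcg2 and Vav1 to calcium release and to the actin skeleton, while receptors such as Fcgr2b and Lilrb4 inhibit it.

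C2C12 is a line of mouse myoblasts, cells that fuse into muscle fibres. Per the labels, wild-type C2C12 myoblasts received saline vehicle (control), lipopolysaccharide (LPS, a bacterial membrane component that activates innate immune cells) at 1 µg/mL, or LPS at 1 µg/mL with moringa isothiocyanate-1 (MIC-1, an isothiocyanate from Moringa seeds) at 10 µM for 24 h (LPS-MIC-1). The muscle came from wild-type C57BL/6 males given saline vehicle, LPS at 10 mg/kg intraperitoneally, or MIC-1 at 80 mg/kg by gavage for 3 days and then LPS, and it was collected 16 h after LPS. Each group had 3 libraries, 18 in all, and the labels do not say whether the 3 C2C12 libraries of a group came from separate cultures, so p-values measure the spread between these libraries only.

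The C2C12 labels were first set against defining genes. Levels are in FPKM (fragments scaled to gene length and to a size factor of the library). The summed level of 11 myogenic genes was between 1.08 and 1.52 FPKM in the control libraries and between 2.46 and 4.58 in the LPS libraries. It was between 1083 and 1375 FPKM in the LPS-MIC-1 libraries. Myf5 and Pax7 were listed at 0 in all 6 control and LPS libraries, and 8 fibroblast genes summed to at most 2.09 FPKM there. Pax7 was under 1 FPKM in all 3 LPS-MIC-1 libraries as well, so it does not separate the groups. The 34 macrophage members, by contrast, summed to between 15084 and 15152 FPKM in control and between 8863 and 9077 in LPS, and to 288, 46.6 and 59.1 in LPS-MIC-1 replicates 1, 2 and 3. The libraries labelled C2C12 control and LPS therefore carried macrophage genes and almost no muscle-precursor genes, against their label, and the LPS-MIC-1 libraries carried the reverse. Treatment and kind of cell cannot be told apart in any comparison of the C2C12 LPS-MIC-1 libraries with the other 6.

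In each experiment 1 library stood apart from its group. For 28 of 34 members the C2C12 LPS-MIC-1 replicate 1 was above replicates 2 and 3, and for 29 of 34 the muscle LPS-MIC-1 replicate 3 was above its replicates 1 and 2. The counts of members called in comparisons with the LPS-MIC-1 groups are given with and without them. In bulk RNA, fewer cells of a type and less RNA per cell cannot be told apart. The number of reads per library is not known. In C2C12 the size of 1 read in FPKM put the size factor of LPS-MIC-1 replicate 3 at 0.467 of control replicate 1. The other C2C12 libraries were between 0.719 and 1.03, and the muscle libraries between 0.983 and 1.11. The FPKM had been scaled by median ratio, so these factors need not equal the ratio of reads.

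**Figure D1:**
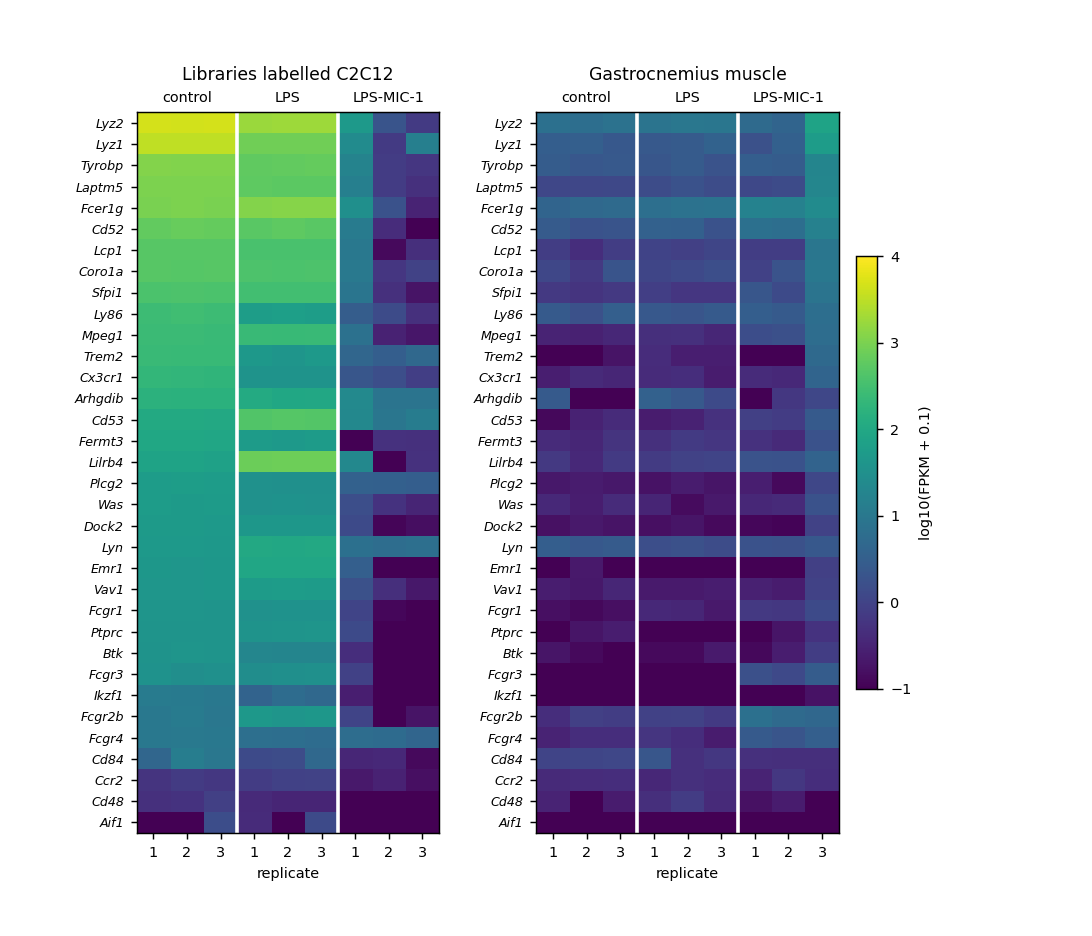
Level of the 34 members in each of the 18 libraries, as log10(FPKM + 0.1) by colour, with genes in the order of their C2C12 control mean and libraries by group and replicate. The C2C12 control and LPS columns are bright, LPS-MIC-1 replicate 1 is brighter than replicates 2 and 3, and muscle LPS-MIC-1 replicate 3 is brighter than the other 8 muscle columns for 27 of 34 members.

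The first question was which macrophage genes the libraries labelled C2C12 kept, raised or lost with LPS. Lilrb4, Cd53 and Fcgr2b rose most, and Trem2, Cx3cr1 and Ly86 fell most, together with both lysozymes, whereas most structural, adaptor and cytoskeletal members moved by less than 2-fold. Of the 31 members with a mean over 1 FPKM, 5 rose and 7 fell, where a call needed both an adjusted p under 0.001 and more than a 2-fold change (1 on the log2 scale) in either direction. Over all 9965 genes tested 26.1% were called, 13.4% higher and 12.7% lower. For 18 members the 95% interval of the log2 fold change lay within -1 and 1, which is called kept here, against 61.3% of all genes tested, and Cd84 met neither criterion. Cd48, Aif1 and Ccr2 had means of at most 0.786 FPKM in both groups and were not tested. The groups did not overlap for 27 of 31 members, against 84.0% of all genes. The median log2 fold change was -0.45 over the members and -0.023 over all genes tested. With all 9 C2C12 libraries in the fit, the calls of Cd53, Lyn, Trem2 and Cx3cr1 remained and those of Lyz1, Lyz2, Fcgr2b, Lilrb4, Emr1, Ikzf1, Btk and Ly86 ended.

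The lysozymes, which cleave bacterial cell walls, were the most abundant members. Lyz2 was at 4723, 4598 and 4761 FPKM in control and at 1786, 1866 and 1863 in LPS. Lyz1 was at 3294, 3278 and 3393 FPKM in control and at 815, 807 and 826 in LPS. All LPS libraries were below all control libraries for both. The log2 fold change was -1.35 ± 0.028 (SE, n = 3 against 3, limma adjusted p = 2.68e-08) for Lyz2 and -2.03 ± 0.023 (adjusted p = 3.22e-09) for Lyz1. The genes are close copies, so how reads were divided between them is uncertain.

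The adaptors were kept, with changes of opposite sign except after quantile normalization. Tyrobp was at 1156, 1145 and 1110 FPKM in control and at 591, 623 and 648 in LPS, a log2 fold change of -0.87 ± 0.037 (limma adjusted p = 7.39e-07). Fcer1g, the common Fc receptor gamma chain, was at 975, 1048 and 971 FPKM in control and at 1196, 1251 and 1228 in LPS, a log2 fold change of 0.30 ± 0.036 (adjusted p = 0.0002). Neither adaptor's groups overlapped. After quantile normalization Tyrobp passed the threshold with a log2 fold change of -1.20, and Fcer1g turned to -0.04.

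Among the Fc receptors for immunoglobulin G, the inhibitory Fcgr2b rose and the activating ones were kept. Fcgr2b was between 9.62 and 12 FPKM in the control libraries and at 45.6, 41.0 and 45.2 in LPS. All 3 LPS libraries exceeded all control libraries, with a log2 fold change of 2.05 ± 0.086 (limma adjusted p = 6.86e-07). The mean of the high-affinity receptor Fcgr1 was 39.5 ± 0.201 FPKM (SD, n = 3) in control and 34.6 ± 1.22 in LPS, and that of Fcgr3 was 32.3 ± 2.44 and 30.5 ± 2.05. Neither passed the adjusted threshold, whereas Fcgr4 had a log2 fold change of -0.69 (adjusted p = 2.84e-05). Fcgr2b and Fcgr3 share much of their sequence, so their split is uncertain too.

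The surface receptors held the largest rises and falls. Lilrb4, an inhibitory receptor of myeloid cells, was at 78.2, 78.5 and 73.9 FPKM in control and at 750, 772 and 795 in LPS, a log2 fold change of 3.33 ± 0.034 (limma adjusted p = 2.14e-09). Cd53, a tetraspanin of leukocytes, was at 111, 109 and 105 FPKM in control and at 444, 476 and 458 in LPS, a log2 fold change of 2.08 ± 0.034 (adjusted p = 1.12e-08). Emr1 rose by a log2 fold change of 1.06 (adjusted p = 3.92e-08), from a mean of 43.0 to 89.7 FPKM. The 3 genes had no overlap between groups.

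Trem2, a lipid-sensing receptor that signals through Tyrobp, was at 248, 239 and 238 FPKM in control and at 46.4, 41.3 and 47.5 in LPS, a log2 fold change of -2.42 ± 0.054 (limma adjusted p = 3.85e-08). Cx3cr1, the fractalkine receptor, was at 201, 199 and 190 FPKM in control and at 37.5, 37.8 and 36.4 in LPS, a log2 fold change of -2.40 ± 0.031 (adjusted p = 4.8e-09). Ly86 (MD-1), the partner of the LPS-receptor homologue RP105, was at 270, 291 and 267 FPKM in control and at 61.8, 65.9 and 61.5 in LPS, a log2 fold change of -2.13 ± 0.044 (adjusted p = 2.67e-08). No LPS library reached a control library for any of these receptors. The general leukocyte genes Ptprc (CD45, log2 fold change 0.0030) and Cd52 (-0.27) and the pore-forming Mpeg1 (-0.05) were kept and did not pass the adjusted threshold. Laptm5, a lysosomal protein of leukocytes, had a log2 fold change of -0.86 (adjusted p = 1.3e-07), which passed 1 in size only after quantile normalization (-1.19).

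The kinases divided. Lyn rose from a mean of 47.6 ± 1.68 FPKM (SD, n = 3) to 103 ± 1.70 (log2 fold change 1.11, limma adjusted p = 1.32e-07), and Btk fell from 38.7 ± 1.90 to 18.9 ± 0.566 (-1.03, adjusted p = 8.99e-07). Btk lost its call with a pseudocount of 1. The phospholipase Plcg2 (-0.81) and the exchange factor Vav1 (0.38) were kept, both past the adjusted threshold. Of the transcription factors, Ikzf1 fell from 11.0 ± 1.05 to 4.82 ± 0.932 FPKM (-1.19, adjusted p = 0.000198), a call that ended without control replicate 1, control replicate 2 or LPS replicate 3. Sfpi1 had a log2 fold change of -0.34 (adjusted p = 1.75e-05), with means of 387 ± 8.99 and 306 ± 5.40 FPKM. The actin and adhesion genes Lcp1, Coro1a, Dock2, Was, Fermt3 and Arhgdib were all kept in the main comparison, with log2 fold changes from -0.78 to -0.24, each past the adjusted threshold.

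**Figure D2:**
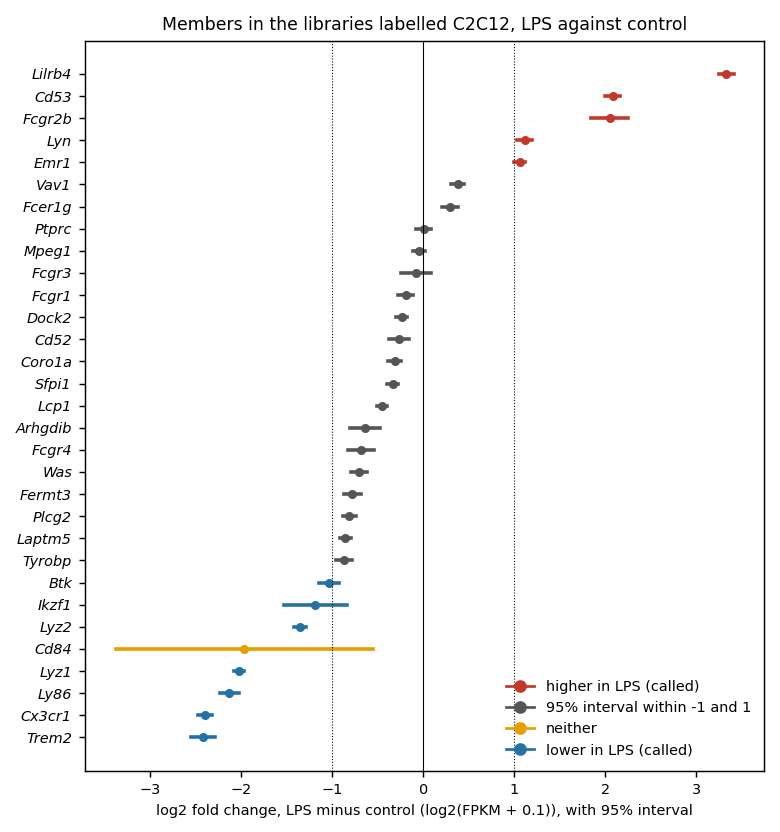
Log2 fold change of LPS minus control for the 31 members tested in the libraries labelled C2C12, on log2(FPKM + 0.1), with points at the estimate and bars at its 95% interval, and dotted lines at -1 and 1. The 5 members called higher run from 1.06 to 3.33, the 7 called lower from -2.42 to -1.03, and the bar of Cd84 is the widest.

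A list of 34 other genes of ITAM and Fc receptor signalling was set beside the members. Of 33 tested, 1 rose, 8 fell and 22 were kept, with a median log2 fold change of 0.18. Pstpip1, an adaptor of the actin skeleton, rose from a mean of 53.1 to 142 FPKM (log2 fold change 1.41, limma adjusted p = 1.7e-08). The largest falls were those of Rasgrp3, a Ras exchange factor, from 57.4 to 13.4 FPKM (-2.10), of the beta-glucan receptor Clec7a from 28.4 to 9.00 FPKM (-1.65), and of the inhibitory receptor Lilrb3 from 3.01 to 1.02 FPKM (-1.49). The phosphatase Ptpn6 (SHP-1) followed at -1.44.

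In the C2C12 LPS-MIC-1 libraries nearly all members were at a small share of their LPS level. For 32 of 34 members every control and LPS library was above every LPS-MIC-1 library. The share of all genes separated in this way was not counted, so the 32 are a description. The groups did not overlap for 30 of 31 members tested against LPS and for 31 of 31 against control, where 85.8% and 83.5% of all genes did not. Against LPS, 18 of 31 members tested fell and 0 rose, where 46.1% of 11001 genes were called and 21.8% were called lower. A further 12 did not pass an adjusted p of 0.001 although 11 of them were past a log2 fold change of -6 and Cd84 was at -3.02. The count was 28 without LPS-MIC-1 replicate 1, 9 without replicate 2, 11 without replicate 3 and 8 without any 1 LPS library. Over all genes, called in either direction, 5070 in the main fit became 4833, 4382 and 4817 without LPS-MIC-1 replicates 1, 2 and 3. They were 3883 to 3985 without an LPS library. The median log2 fold change was -7.19 over the members and 0.012 over all genes tested. Against control, 20 of 31 fell and 0 rose, where 40.0% of all genes were called and 18.5% were called lower. That count was 28 without LPS-MIC-1 replicate 1, 11 without replicate 2 or replicate 3, 10 without control replicate 1 and 9 without control replicate 2 or 3. Over all genes, 4375 in the main fit became 4203, 3759 and 4198 without LPS-MIC-1 replicates 1, 2 and 3. They were 3344 to 3367 without a control library. These comparisons share libraries with each other and with that of LPS against control. Only 20 of 34 members had an LPS-MIC-1 mean over 1 FPKM. The others that were tested passed the 1 FPKM minimum only through LPS or control, so these counts and medians are a description. Fcgr1, Fcgr3, Ptprc, Ikzf1, Btk, Vav1, Dock2, Was and Fermt3 were among them and called lower in both comparisons. So were Fcgr2b, called lower against LPS, and Cd84, called lower against control. With no minimum, 20 were called lower against LPS and 21 against control, where 5894 and 5245 of all genes were called in either direction. Of the 34 ITAM genes, 24 of 32 tested fell and 0 rose against LPS, and 17 of the 34 had an LPS-MIC-1 mean over 1 FPKM.

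Fcgr4 was the exception. It was at 6.51, 6.34 and 5.81 FPKM in LPS and at 6.02, 5.45 and 4.14 in LPS-MIC-1, and the log2 fold change of -0.27 (95% interval -0.66 to 0.13) made it the only member kept in this comparison, against 30.2% of all genes. Against control 0 of 31 were kept, against 35.1%. Other members that stayed well above 0 in all 3 LPS-MIC-1 libraries were Cd53 (21.0, 9.13 and 12.3 FPKM), Arhgdib (22.1, 8.15 and 8.24), Lyn (6.98, 5.99 and 6.70), Trem2 (4.31, 2.99 and 4.86) and Plcg2 (3.54, 3.27 and 2.99). Lyz1 was at 25.7 and 14.1 FPKM in replicates 1 and 3 and at 0.617 in replicate 2.

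The trace of the members in LPS-MIC-1 replicate 1 followed their LPS level. Over the 28 members with an LPS mean over 10 FPKM, replicate 1 held a median of 2.84% of the LPS mean, replicate 2 held 0.116% and replicate 3 held 0.109%. Replicate 1 ranged from 0 to 21.7% of the LPS mean across these 28. The SD of the log2 percentage over the 27 above 0 was 0.80 against LPS and 1.40 against control. In 19 of the 28, replicates 2 and 3 were both under 1% of LPS, so that replicate 1 could be read alone. For these, replicate 1 was at a median of 2.74% of the LPS mean, from 0 to 3.50%, and at a median of 2.41% of the control mean, from 0 to 28.2%. The SD of the log2 percentage over the 18 members above 0 was 0.21 against LPS and 1.18 against control. Their log2 levels in replicate 1 had a Pearson r of 0.995 with the LPS mean and 0.876 with the control mean. These are descriptions over 18 genes measured in the same libraries, which are not independent.

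Single members showed the same contrast. Lilrb4, which LPS raised, was at 21.7 FPKM in replicate 1, which is 2.81% of its LPS mean and 28.2% of its control mean. Lyz2, which LPS lowered, was at 48.8 FPKM, which is 2.65% of its LPS mean and 1.04% of its control mean. Fcer1g was at 30.5 FPKM (2.49% and 3.05%) and Tyrobp at 17.0 FPKM (2.74% of LPS). Fermt3 departed from this, being listed at 0 in replicate 1 and at 0.423 and 0.402 FPKM in replicates 2 and 3. In 23 genes outside the list, over 50 FPKM in LPS and under 0.1% of that in replicates 2 and 3, replicate 1 held a median of 2.80% of the LPS mean. Where the RNA of this trace came from was not tested.

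**Figure D3:**
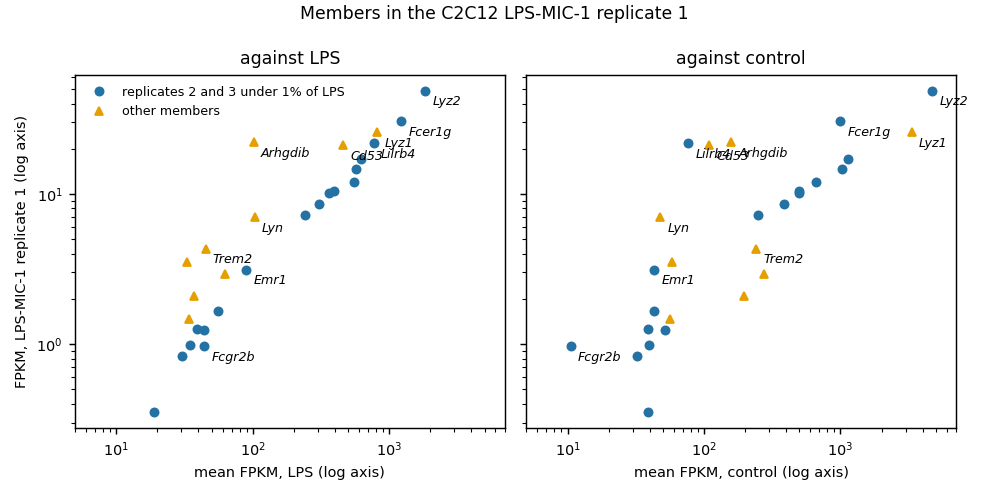
Level of the members in C2C12 LPS-MIC-1 replicate 1 against their mean in LPS (left) and in control (right), in FPKM on log axes, for the 27 members above 0 with an LPS mean over 10 FPKM, with circles for members whose replicates 2 and 3 were under 1% of LPS and triangles for the others. The circles lie close to a line on the left and spread more on the right, where Lilrb4 is the highest in proportion, at 28.2% of its control mean.

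In gastrocnemius the members were low. Their summed level was between 29.0 and 35.2 FPKM in control, between 38.7 and 42.1 in LPS, and 60.5, 56.9 and 296 in LPS-MIC-1 replicates 1, 2 and 3, and 23 of 34 were under 1 FPKM in all 6 control and LPS libraries. C2C12 and muscle values were normalised separately, so their levels are set side by side only as deposited. In muscle the labelled tissue held its defining genes, with 12 fibre genes summing to between 179435 and 243461 FPKM.

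LPS alone moved no member past the threshold in muscle. Of 11 tested, 0 were called in either direction by limma, here at an adjusted p under 0.05 with the same minimum change, where 1.20% of 9301 genes were called (0.581% higher and 0.624% lower), and 3 had an unadjusted p under 0.05. Of the 11, 6 were kept, against 85.1% of all genes. The median log2 fold change was 0.17 over the 11 and 0.0051 over all genes. Lyz2 was at 6.79, 6.31 and 7.64 FPKM in control and at 8.31, 9.65 and 8.93 in LPS (log2 fold change 0.37, adjusted p = 0.0469). Fcer1g was at 3.90, 4.89 and 5.21 FPKM in control and at 6.50, 7.63 and 7.95 in LPS (0.65, adjusted p = 0.0239). Lyn was at 2.98, 2.26 and 2.67 FPKM in control and between 1.33 and 1.62 in LPS (-0.79, adjusted p = 0.019). These genes were among the 4 of 11 members whose groups did not overlap, against 36.9% of all genes, and all 3 were under a log2 fold change of 1 in size. Lyz1 was at 3.03, 3.14 and 2.29 FPKM in control and at 2.38, 2.66 and 3.71 in LPS, and these overlapped. Arhgdib was listed at 0 in 2 of 3 control libraries, and its adjusted p was 0.195. Of the ITAM genes, 11 were tested and 0 were called.

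With MIC-1 before LPS, Fcer1g, Fcgr2b, Fcgr4, Mpeg1, Cd52, Lilrb4 and Sfpi1 were called higher in muscle than with LPS alone. Of 16 members tested, these 7 rose, 0 fell and Lyn was kept, where 15.2% of 9467 genes were called, 10.2% were called higher and 66.7% were kept. The groups did not overlap for 10 of 16, against 64.3% of all genes. The median log2 fold change was 1.28 over the 16 and 0.0011 over all genes. Of the 16, 6 had an LPS mean at or under 1 FPKM and passed the minimum only through LPS-MIC-1, among them 5 of the 7 called, so the count and the median over those tested are a description. For those 5 the adjusted p is therefore given from the fit with no minimum, which took every gene above 0 in at least 3 of the 6 libraries. Without LPS-MIC-1 replicate 3, 6 of 14 tested were called higher and Arhgdib lower (log2 fold change -3.18, limma adjusted p = 0.0343), Mpeg1 was under the minimum, and the median was 0.34. Over all genes 1437 were called in that fit and 1438 in the main fit. This count and median are a description too, as they hold members that passed the minimum through a single group. Against control the same 7 of 15 tested rose, where 15.6% of all genes were called, 9.77% higher and 5.82% lower. Again 6 of the 15, with 5 of the 7 called, had a control mean at or under 1 FPKM, so this count too is a description. Without replicate 3, 4 of 11 tested were called higher against control, again a description, and Mpeg1, Lilrb4 and Sfpi1 were under the minimum. Over all genes 1463 were called in that fit and 1484 in the main fit. There 8 of 15 had no overlap, against 64.6% of all genes, and 1 was kept, against 64.8%. The LPS-MIC-1 libraries are shared by these comparisons.

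Fcgr2b was at 0.847, 0.852 and 0.601 FPKM in LPS and at 6.98, 5.28 and 4.47 in LPS-MIC-1 (log2 fold change 2.70 ± 0.213, SE, limma adjusted p = 0.00022 with no minimum). Fcgr4 was at 0.490, 0.352 and 0.139 FPKM in LPS and at 2.53, 1.97 and 3.11 in LPS-MIC-1 (2.70 ± 0.397, adjusted p = 0.00222 with no minimum). Fcgr3 was listed at 0 in all 6 control and LPS libraries and at 1.56, 1.20 and 2.72 FPKM in LPS-MIC-1. All 3 Fc receptors were thus higher in each LPS-MIC-1 library than in any other, and for Fcgr2b replicate 3 was the lowest of its group.

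Mpeg1 was at 0.374, 0.393 and 0.247 FPKM in LPS and at 1.44, 1.58 and 5.90 in LPS-MIC-1 (log2 fold change 2.53 ± 0.560, limma adjusted p = 0.0131 with no minimum). Fcer1g was at 16.5, 15.5 and 26.0 FPKM in LPS-MIC-1 (1.35 ± 0.204, adjusted p = 0.00191). Cd52 (1.64, adjusted p = 0.0159) and, with no minimum, Lilrb4 (1.40, adjusted p = 0.0191) and Sfpi1 (2.08, adjusted p = 0.0494) were also called, with no overlap between groups. Without replicate 3 the log2 fold change was 1.12 for Fcer1g and 1.24 for Cd52, and both were called. It was 2.85 for Fcgr2b, 2.55 for Fcgr4, 1.05 for Lilrb4 and 1.32 for Sfpi1. These were called as well, but they passed the 1 FPKM minimum of that fit only through LPS-MIC-1. Their calls without replicate 3 are therefore a description. The call of Sfpi1 ended when any 1 LPS library or LPS-MIC-1 replicate 1 was left out. Altogether 10 of 34 members had LPS-MIC-1 replicates 1 and 2 both above all 6 control and LPS libraries. They were Fcer1g, Fcgr1, Fcgr2b, Fcgr3, Fcgr4, Mpeg1, Cd52, Lilrb4, Cd53 and Sfpi1. How many of all genes did so was not counted, so this too is a description.

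Neutrophil genes and Kit, a gene of the mast cell list, moved with this group. The summed level of 11 neutrophil genes was between 1.89 and 3.06 FPKM in control and LPS and between 15.1 and 20.2 in LPS-MIC-1, where S100a8 was at 7.25, 7.47 and 7.41 FPKM, Ngp was at 3.53, 2.68 and 3.28 and Elane was listed at 0. The sum of 7 mast cell genes was between 1.16 and 2.69 FPKM in control and LPS and between 5.97 and 7.06 in LPS-MIC-1, most of it Kit, with Ms4a2 listed at 0. Fcer1g and the Fc receptors are expressed by neutrophils and mast cells too. Their part in the rises was not tested. Of 13 ITAM genes tested, Hcls1, Lilrb3 and Arpc1b rose (log2 fold changes of 1.60, 1.47 and 1.28) and Pik3cd fell (-1.56).

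**Figure D4:**
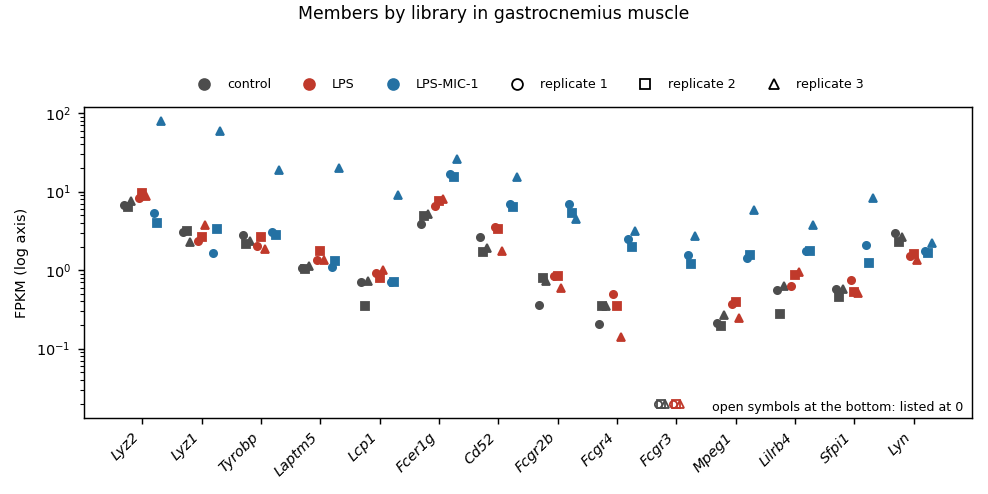
Level of 14 members in each muscle library, in FPKM on a log axis, by group (colour) and replicate (symbol), with open symbols at the bottom for values listed at 0. For the Fc receptors, Fcer1g and Cd52 all 3 LPS-MIC-1 libraries are above the others, whereas for Lyz2, Lyz1, Tyrobp, Laptm5 and Lcp1 replicate 3 stands far above replicates 1 and 2.

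For other members the rise was wholly or mostly that of LPS-MIC-1 replicate 3. Lyz2 was at 5.27, 3.93 and 78.3 FPKM in replicates 1, 2 and 3, Lyz1 at 1.66, 3.31 and 59.1, and Laptm5 at 1.10, 1.31 and 19.9. Tyrobp was at 3.09, 2.76 and 18.7 FPKM, Lcp1 at 0.710, 0.705 and 9.04, and Trem2 at 0, 0 and 5.05. For Tyrobp replicates 1 and 2 were also above the LPS libraries, which reached 2.63 FPKM. Trem2 was under the minimum for testing, and the other 5 did not pass the test against LPS. In 12 members replicate 3 was over 5 times the higher of replicates 1 and 2 and over 0.5 FPKM. Without replicate 3 the log2 fold change against LPS was -0.96 for Lyz2, -0.28 for Lyz1, -0.27 for Laptm5 and 0.43 for Tyrobp, where it had been 0.40, 1.26, 1.04 and 1.31 with it.

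The excess of replicate 3 over the mean of replicates 1 and 2 was set beside the members' levels in the C2C12 libraries, a comparison chosen after seeing the data. Over the 30 members with a C2C12 control mean over 10 FPKM, the excess was at a median of 1.67% of the C2C12 control mean, with quartiles of 1.35 and 1.81%, and in 22 of 30 it was between 1 and 2.2%. Against the C2C12 LPS mean the median was 2.17%, with quartiles of 1.09 and 3.83%. The SD of the log2 percentage over the 29 members with an excess above 0 was 0.72 against control and 1.39 against LPS, and Pearson's r of the log2 levels was 0.949 and 0.808. As above, these are descriptions over genes of the same libraries.

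Trem2, which was low in C2C12 LPS, had an excess of 5.05 FPKM, which is 2.09% of its C2C12 control mean and 11.2% of its C2C12 LPS mean. Lilrb4, which was high in C2C12 LPS, had an excess of 1.97 FPKM, which is 2.57% of its C2C12 control mean and 0.256% of its C2C12 LPS mean. Cx3cr1 was at 1.88% and 9.93%. Over the members used, the muscle trace lay nearer in proportion to the C2C12 control libraries. The trace in C2C12 LPS-MIC-1 replicate 1 lay nearer to the C2C12 LPS libraries. Each trace was described on members picked by their level in the libraries it lay nearer to, so the 2 descriptions are not like for like. Fcgr2b, with replicate 3 below replicates 1 and 2, and Fcgr4, at 8.60% of control, were the members farthest from the median. In 20 genes outside the list, over 50 FPKM in C2C12 control and under 0.1% of it in muscle LPS-MIC-1 replicates 1 and 2, the excess was at a median of 1.63% of control and 1.90% of LPS. The source of this excess was not tested.

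**Figure D5:**
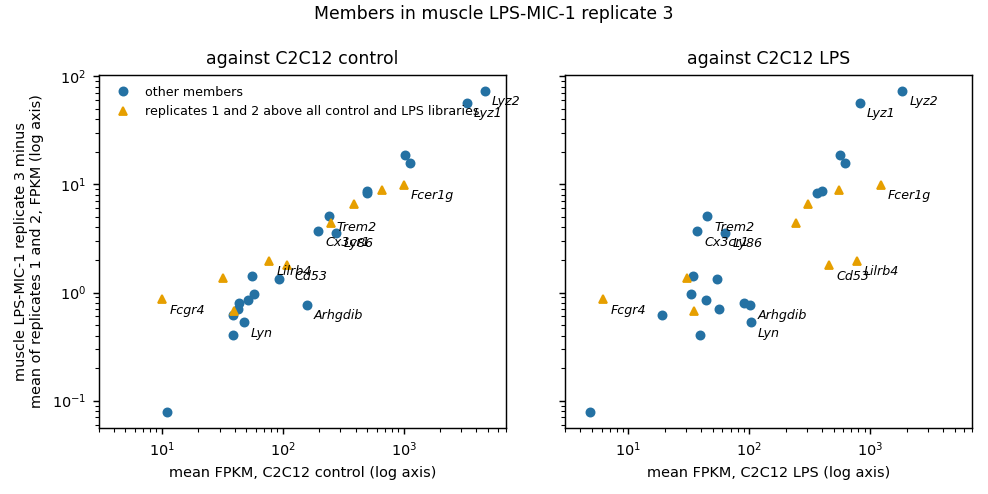
Excess of muscle LPS-MIC-1 replicate 3 over the mean of replicates 1 and 2 against the mean in C2C12 control (left) and C2C12 LPS (right), in FPKM on log axes, for the 29 members with a C2C12 control mean over 10 FPKM and an excess above 0. The points lie closer to a line on the left, and on the right Fcgr4, Trem2 and Cx3cr1 are the highest in proportion, at 13.9, 11.2 and 9.93% of the C2C12 LPS mean, and Lilrb4 and Cd53 the lowest, at 0.256 and 0.388%. Triangles mark the members whose replicates 1 and 2 were above all 6 control and LPS libraries.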

How the data were processed

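RNA-seq of 18 libraries was used, 3 per group. Reads had been pseudoaligned by the authors with kallisto and collected by gene through tximport, and 1 table of FPKM per experiment was deposited. The build mm9 is named in the submitters' processing notes without a role. Over the genes above 0 in all 9 libraries of a table (10789 in C2C12, 11829 in muscle), the median-ratio factors of the libraries were the same to within 5.85e-08%, so the deposited FPKM had already been scaled by median ratio across each table. Such values are relative to the other libraries of the table, which in C2C12 differ in kind of cell. The size of 1 read among low values therefore gives a relative size factor of each library, and the number of reads is not known. The labels give 10 µM MIC-1 for the cells, and the study's text gives a lower concentration. The muscle table has 11 further columns without names, of which 9 hold per-sample values, and none was used. The authors' tables of DESeq2 base means, fold changes and p-values were not used.

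Each comparison was fitted on its 6 libraries with limma 3.58.1 (R 4.3.3), on log2(FPKM + 0.1), eBayes with a trend, for genes with a mean over 1 FPKM. The Benjamini-Hochberg adjustment covered every gene tested in a comparison. Fold changes on this scale understate the change of low genes. Calls needed an adjusted p under 0.001 (C2C12) or 0.05 (muscle) and a log2 fold change beyond 1 or -1. The fit was tested on simulated data. Figures were drawn with matplotlib 3.10.9. The members and lists were chosen with earlier results of these data known. Values in every library are given for the 3 highest members, the 3 largest rises and falls among called members, and the members on which a trace is described. Alternatives were other pseudocounts, filters, scalings and thresholds, all 9 libraries in the fit, a replicate block and leaving out each library. Replicate numbers were not used as pairs in the main fits. The scaling to a common total, the split of members at 1% of the LPS level, the excess of muscle replicate 3 and the genes outside the list set beside the members were chosen after seeing the data.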

Additional observations from a re-analysis of the deposited data

Results flagged for a closer look

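Several members moved in opposite directions in the 2 experiments, every library of one group lying above, and in the other experiment below, every library of the group it was compared with. The difference between experiments was not tested, and each table was normalised separately. For LPS minus control, the log2 fold change in muscle was 0.37 for Lyz2, 0.42 for Laptm5 and -0.79 for Lyn, and in the libraries labelled C2C12 it was -1.35, -0.86 and 1.11.

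For LPS-MIC-1 minus LPS, the log2 fold change in muscle was 1.31 for Tyrobp, 1.35 for Fcer1g, 2.70 for Fcgr2b, 2.53 for Mpeg1, 1.64 for Cd52, 1.40 for Lilrb4, 2.08 for Sfpi1 and 0.32 for Lyn. All 8 were negative in C2C12, where the LPS libraries held macrophage genes and those with MIC-1 held muscle-precursor genes. In muscle, the values of Tyrobp and Lyn here and all 3 values of LPS minus control were not called.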

How the results depend on the processing

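Over single members, 1848 of 2119 values under an alternative kept their call or lack of one, 178 lost a call, 93 gained one and 0 called values reversed. Median-ratio scaling is uninformative here: the deposited FPKM had been scaled that way, so over all 9 libraries it leaves every ratio as it is, and its values say nothing about stability. For C2C12 LPS against control, 2 members were called higher and 2 lower with all 9 libraries in the fit, which brings the spread of the LPS-MIC-1 libraries in. Over all genes 2188 were called there and 2599 in the main fit. For C2C12 LPS-MIC-1 against LPS, 29 members were called lower with a pseudocount of 1 or all 9 libraries, 9 with a pseudocount of 0.01, 30 at an adjusted p under 0.05, and 8 to 28 on leaving out a library. Over all genes, called in either direction, the pseudocounts of 1 and 0.01 gave 5096 and 4715. All 9 libraries gave 5546, and an adjusted p under 0.05 gave 6042. Against control, 10 members were called lower with a pseudocount of 0.01, where 4101 of all genes were called, and 9 to 28 on leaving out a library. The replicate block gave 8 members against LPS and 11 against control, where 3819 and 3249 of all genes were called. Same-numbered libraries correlated between -0.079 and 0.073 and differently numbered ones between -0.109 and 0.114. No pairing by number was seen, but with 3 libraries per group this check cannot exclude one. For muscle LPS against control, 172 genes were called with no FPKM filter, 49 with a mean over 5 and 40 at an adjusted p under 0.001, and 0 to 1 members on leaving out a library (Arhgdib, without control replicate 1). For muscle LPS-MIC-1 against LPS, with a mean over 5, 692 genes were called in either direction and 2 members higher, 1 member was called higher at an adjusted p under 0.001, and 1 lower without LPS-MIC-1 replicate 3 or with a pseudocount of 1, no filter or quantile normalization. Against control, a mean over 5 gave 731 genes and 2 higher members, 3 higher at an adjusted p under 0.001, 1 lower with no filter, and 4 to 7 higher on leaving out a library. The trace medians of C2C12 LPS-MIC-1 replicates 2 and 3 were 0.125% and 0.0925% over members above 50 FPKM, and 0.121% and 0.0945% after scaling to a common total, chosen after seeing the data, while that of replicate 1 was 2.90%. Levels near 0 FPKM come from few reads and have no counting interval.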
